A study of Homo sapiens with 59 samples.

Results

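The comparison set THP-1 cells collected 8 h after the addition of DMSO against those collected 3 h after it. Its members were the 6 arrays of each time, taken by the treatment and time given for each sample, 12 of 59 arrays in all. THP-1 is a human monocytic leukaemia line. All groups had been differentiated with the phorbol ester PMA at 10 ng/ml for 40 h and kept without PMA for 2 h before they received DMSO, the vehicle, or 1 µM of rosiglitazone (RSG), a ligand of the nuclear receptor PPARG. Cells were collected at 0.5, 1.5, 3, 8 and 12 h to follow the response to the ligand, and the vehicle arrays are its controls. The labels do not say whether replicates were separate cultures, so p-values measure the spread between these samples, which may be technical. No array from before DMSO was added was analysed here, so that the time in culture, the vehicle and the removal of PMA cannot be told apart.

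PMA mimics diacylglycerol and keeps protein kinase C active. In monocytic leukaemia lines this drives the ERK cascade and the factors AP-1 and NF-kB, slows proliferation, makes the cells adhere and turns on genes of the macrophage. The E2F factors control the genes of DNA replication, while many mitotic genes follow later in the cycle through a promoter element called CHR. Heat shock factor 1 controls the chaperones, sterol-sensing factors control enzymes of lipid synthesis, and the metal-sensing factor MTF1 controls the metallothioneins.

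The mean raw signal of the 12 arrays ran from 329 to 1028, and 12182 to 13937 probes were detected on each. Of 16922 named genes on the array, 10329 had a probe detected on at least 5 of the 12 arrays and were tested. Of 14 macrophage markers 11 were detected on all 12 arrays, among them CSF1R, CD68 and SPI1, while MRC1, C1QA and C1QB were detected on none. The summed levels of neutrophil and endothelial markers were lower on every 8 h array than on any 3 h array. The erythroid sum was also lower, at 154 to 193 at 3 h and 123 to 149 at 8 h. It holds 5 markers, 1 of them tested and 0 detected on all 12 arrays, with HBB and HBD undetected. The sums of dendritic cell markers overlapped, though all 4 tested members fell. The summed linear intensity of 9 neutrophil markers, 5 of them tested, lay at 15314 to 18688 at 3 h and 11462 to 13256 at 8 h, with MPO, CEACAM8 and LTF at 0 detected arrays. Of the 5 tested 1 fell, ELANE, neutrophil elastase, by 0.57 (SE 0.10). That of 10 dendritic cell markers, 4 of them tested, lay at 14966 to 18552 and then 11738 to 15152, and LAMP3, CCR7, CD1B, CLEC9A and CLEC4C were detected on no array. That of 7 endothelial markers, 4 of them tested, lay at 1151 to 1307 and then 801 to 922, with CDH5, KDR and CLDN5 undetected and PECAM1, which monocytes also carry, falling by 0.63 (SE 0.09). The samples are of a single cell line, so these are transcripts measured in THP-1 cells and no count of other cells. Whether fewer cells carried them or each cell carried less cannot be told apart. The part of these markers in the results was not tested.

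The time of collection was the leading difference among the 12 arrays. In a principal component analysis over all genes tested the first component held 44.3% of the variance and placed the 3 h arrays at -13.7 and below and the 8 h arrays on the opposite side of 0. The next component held 23.3% and divided each time into 3 arrays and 3 arrays. The first set was made of 3 h replicates 1, 2 and 3 with 8 h replicates 4, 5 and 6, and the second set of 3 h replicates 4, 5 and 6 with 8 h replicates 1, 2 and 3. No label or file header names what divides them, and the sets were seen in the data. Each holds both times, so that the comparison could also be made within each.

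**Figure D1:**
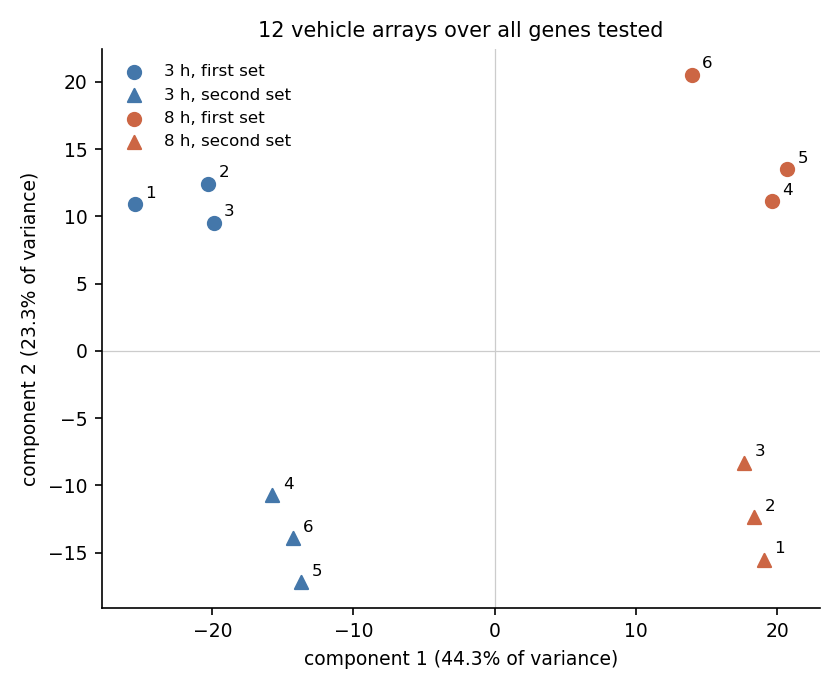
The 12 vehicle arrays on the first (horizontal, 44.3% of variance) and second (vertical, 23.3%) principal components over all genes tested, with blue for 3 h, orange for 8 h, circles for the first set of arrays, triangles for the second and the replicate number beside each point. The times part on the horizontal axis and the sets on the vertical axis.

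Between 3 and 8 h of DMSO most genes of DNA replication and mitosis, most heat shock chaperones and most enzymes of fatty acid synthesis rose. In the same interval IL1B, CCL3, cyclin D1, the matrix proteases MMP12 and MMP1 and the metallothionein MT1X fell. PPARG, the receptor of the ligand, had a log2 difference of 0.02. In the limma fit of the 12 arrays 3443 of 10329 genes passed an adjusted p of 0.05, of which 1917 (18.6% of genes tested) rose and 1526 (14.8%) fell. Among them 638 rose and 346 fell by at least 1.5-fold, and 107 rose and 75 fell at least 2-fold. In 1019 genes (9.87%) all 6 arrays of 8 h lay above all 6 of 3 h, and in 739 (7.15%) all lay below. In what follows, an amount by which a gene rose or fell is a log2 difference in intensity with its SE, and every gene said to rise or fall passed the limma test. Of the 3443 genes 46 were detected on no array of 1 time, having passed the filter through the other time alone.

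Differences are relative to the typical gene. Over all genes the median log2 difference was 0.00, against 0.14 in the authors' scaled table and 0.06 with average normalization of the raw signal. In that table there were 2794 rises and 669 falls, and with average normalization 2389 rose and 727 fell, so that 80.7% and 76.7% of calls were rises beside 55.7% here. The called genes named in the text kept their direction in all alternatives tried, though CEP128 and GPR34 among them have a bound only.

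DMSO 3 h replicate 4 was left out as a check. Without it 3212 genes passed, 3085 of them also with it, 358 lost their call, 127 gained one and 0 turned direction. Of the 984 genes called at 1.5-fold or more 3 lost the call. The named genes that lost it were MVK, an enzyme of sterol synthesis, DBP, a factor of the circadian clock, FSCN1, an actin-bundling protein, and the tRNA synthetases HARS1 and YARS1. Without the array their log2 differences were -0.25, 0.37, -0.24, -0.31 and -0.26, with adjusted p from limma of 0.0858, 0.055, 0.0687, 0.0505 and 0.0594. Over all alternatives the adjusted p of these genes reached 0.484, 0.164, 0.157, 0.272 and 0.375. The log2 differences within the first and the second set had a correlation of 0.80 across the 10329 genes, which are not independent.

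A fit of group means over all 59 arrays, 5 of which stand apart from their groups, called 1828 genes, 1795 of them among the 3443. Of the 129 called genes that are named here 40 lost their call in it, with the same differences. They were CCL3, NCF1, CCL3L3, IL1B, FABP4, MLXIPL, EBP, MVK, ATF3, SPRED1, CCL3L1, RELB, ISG20, HERC5, GBP2, IRF7, BHLHE40, DBP, BHLHE41, MT1M, PLIN2, ABCG1, CD14, TLR1, TLR2, FCGR1A, C5AR1, ALOX5, FLI1, HADH, EHHADH, ACADS, CPT1A, ANXA1, CD83, RFX5, CD74, NRIP1, PECAM1 and FSCN1. Counts of list members in this fit and under other scalings stand beside most of the lists they move.

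Genes were read in 32 lists of pathways and functions, and the plot of list members gives the difference of each member beside the median of its list. Over all genes tested 18.6% rose and 14.8% fell, and the counts of each list are to be read beside these shares. The lists of replication, mitosis, chaperones and fatty acid synthesis had the highest medians. Those of matrix proteases, ERK feedback, metallothioneins, inflammatory cytokines and immediate early genes had the lowest.

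**Figure D2:**
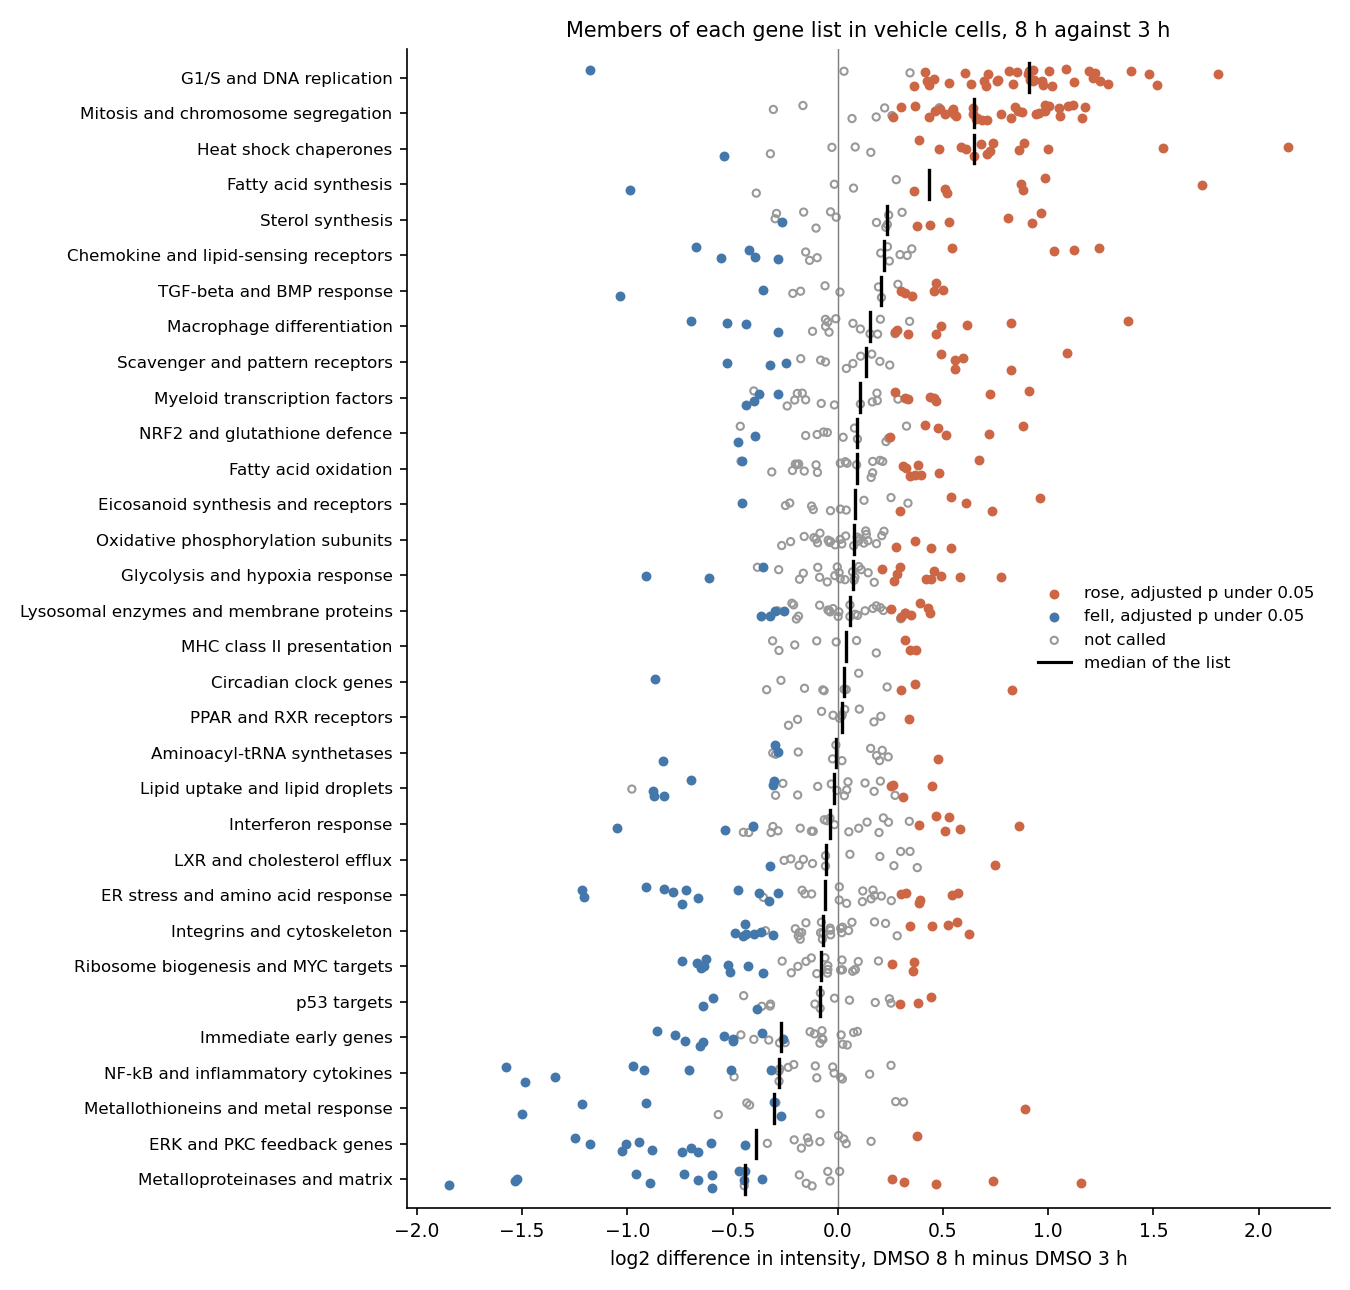
Log2 difference in intensity between DMSO 8 h and DMSO 3 h (horizontal axis) for the tested members of each of 32 gene lists (vertical axis, ordered by median), with filled points for members past an adjusted p of 0.05 (orange rose, blue fell), open grey points for the others and a black bar for the median. The medians run from -0.44 for metalloproteinases and matrix to 0.91 for G1/S and DNA replication.

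Genes of entry into the cell cycle and of DNA replication rose almost throughout. Of 41 tested members 38 rose and 1 fell, with a median log2 difference of 0.91, and in 33 all 8 h arrays lay above all 3 h arrays. E2F2, a transcription factor of entry into S phase, had a log2 intensity that ran from 7.70 over 7.97 to 8.30 at 3 h and from 9.28 over 9.86 to 10.17 at 8 h (lowest, median and highest array). The groups did not overlap, and E2F2 rose 3.50-fold (log2 1.81, SE 0.14, adjusted p = 3.4e-07). CDC45, a part of the replicative helicase, ran from 8.96 over 9.07 to 9.31 at 3 h and from 10.26 over 10.65 to 10.92 at 8 h. It rose 2.86-fold (SE of the log2 difference 0.11, adjusted p = 2.04e-07) with no overlap. GINS2, a partner of CDC45 in the helicase, had means of 9.71 ± 0.07 at 3 h and 11.10 ± 0.15 at 8 h (SD, n = 6), a rise of 2.62-fold in the limma fit (adjusted p = 6.37e-08). MCM10, which helps to activate the helicase, rose by 1.48 (SE 0.12) on the log2 scale and PCNA, the sliding clamp of the DNA polymerases, by 1.02 (SE 0.10). The probes of PCNA disagreed, at 1.02 for the one used and -0.06 and 0.53 for the others. Beyond the list, DTL, which directs the licensing factor CDT1 to destruction, rose by 1.44 (SE 0.18) and POLQ, a polymerase of end joining, by 1.57 (SE 0.14).

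CCND1, or cyclin D1, was the member that fell. Its log2 intensity ran from 12.27 over 12.46 to 12.57 at 3 h and from 10.89 over 11.27 to 11.65 at 8 h. It fell 2.26-fold (SE of the log2 difference 0.13, adjusted p = 5.46e-06) with no overlap. Cyclin D1 is known as a target of ERK signalling and also stands in the list of ERK feedback genes. Its partner kinase CDK4 had a log2 difference of 0.34 (SE 0.13, adjusted p = 0.0514), next to the threshold, and passed with an adjusted p of 0.0191 with the authors' scaling. Over all alternatives its adjusted p lay between 0.00418 and 0.241. The lowest came with the block for the sets of arrays, which was chosen after seeing the data.

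Mitotic genes moved the same way, with a lower median. Of 40 tested members 33 rose and the others did not pass the test, with a median of 0.65, and in 23 the 8 h arrays lay above all those of 3 h. TTK, a kinase of the spindle checkpoint, ran from 7.13 over 7.55 to 7.85 at 3 h and from 8.34 over 8.62 to 9.03 at 8 h. It rose 2.26-fold (SE of the log2 difference 0.14, adjusted p = 1.48e-05) with no overlap. MAD2L1, another protein of that checkpoint, rose by 1.16 (SE 0.20), the spindle motor KIF11 by 1.12 (SE 0.16) and HMMR, a hyaluronan receptor and spindle protein, by 1.09 (SE 0.09). MAD2L1 was detected on 3 of 6 arrays at 3 h, so that its difference rests on signal near background there. Among genes outside the list, OIP5, which takes part in loading the centromeric histone, rose by 1.58 (SE 0.11) and LRRC45, a protein of the centrosome linker, by 1.41 (SE 0.17). The other probe gave 0.49 for LRRC45 and 0.68 for HMMR. CEP128, a protein of the centriole, was detected on 0 of 6 arrays at 3 h and on 6 of 6 at 8 h. It passed the filter through the 8 h arrays alone, so that its level at 8 h is given with no test, as at least 1.87-fold that at 3 h, a bound that for each undetected array takes the higher of its own value and the lowest signal among detected probes.

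The promoters of these genes are shown because the replication and mitosis lists had the highest medians. Windows from 250 bases before to 50 bases after each gene's start (RefSeq, GRCh38.p14) were searched on both strands for TTTCCCGC or TTTGGCGC, forms of the E2F site, and for TTTGAA, the core of the CHR. Of 36 replication genes with a window 17 (47.2%) held the E2F letters, which 2.27% of all 35116 windows hold. Of 34 mitotic genes with a window 22 (64.7%) held the CHR letters, against 15.2% of all windows, and 2 (5.88%) held the E2F letters. A match describes the sequence and says nothing of binding. In the stretches printed here, 5′ to 3′, capitals mark the match on either strand, an E2F form in E2F2, DTL and GINS2 and the CHR core in KIF11, MAD2L1 and HMMR, where it stands 2 times in a row.
E2F2 (chr1:23531232-23531311, - strand): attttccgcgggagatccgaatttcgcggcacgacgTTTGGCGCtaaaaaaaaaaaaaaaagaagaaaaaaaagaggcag
DTL (chr1:212035704-212035783, + strand): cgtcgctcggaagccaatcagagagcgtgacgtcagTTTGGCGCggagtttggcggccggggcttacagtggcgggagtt
GINS2 (chr16:85688942-85689021, - strand): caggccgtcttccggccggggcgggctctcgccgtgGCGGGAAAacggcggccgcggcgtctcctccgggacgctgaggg
KIF11 (chr10:92593066-92593143, + strand): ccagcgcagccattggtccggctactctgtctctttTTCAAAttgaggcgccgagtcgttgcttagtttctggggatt
MAD2L1 (chr4:120066799-120066860, - strand): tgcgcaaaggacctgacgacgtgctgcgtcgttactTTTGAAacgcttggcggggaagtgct
HMMR (chr5:163460568-163460651, + strand): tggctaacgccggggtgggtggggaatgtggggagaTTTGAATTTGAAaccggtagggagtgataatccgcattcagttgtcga

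Heat shock chaperones held the largest rise among the genes tested. HSPA1A, the inducible HSP70, ran from 7.94 over 8.10 to 8.25 at 3 h and from 10.01 over 10.23 to 10.49 at 8 h. The groups lay far apart, and HSPA1A rose 4.40-fold (log2 2.14, SE 0.10, adjusted p = 3.06e-09). HSPA1B, a nearly identical copy, ran from 9.90 over 10.04 to 10.27 at 3 h and from 10.23 over 10.99 to 11.38 at 8 h. It rose 1.84-fold (adjusted p = 0.000893) with overlapping groups, and the probes of both may read either transcript. HSPA1B differed by 0.45 in the first set of arrays (adjusted p = 0.0625) and by 1.31 in the second, and its adjusted p over all alternatives lay between 3.06e-05 and 0.0625. HSPA4L and HSPH1, both exchange factors of the HSP110 family, rose by 1.54 (SE 0.13) and 1.00 (SE 0.13). In all 14 of 19 tested genes rose and 1 fell, with a median of 0.65. The fall was that of HSF1, the factor that drives the chaperones, from a median of 6.13 to one of 5.51 (log2 difference -0.54, SE 0.14, adjusted p = 0.00758), with overlapping groups. The heat shock element was found in 3 of 18 chaperone windows (16.7%), those of DNAJA1, HSPA8 and SERPINH1, and in 0.49% of all windows. The sterol element TCACNCCAC was found in 1 of 16 windows of sterol synthesis genes, in 0 of 11 of fatty acid synthesis genes and in 1.13% of all. The AP-1 letters TGANTCA were found in 1 of 20 windows of immediate early genes, in 2 of 16 of matrix genes and in 7.71% of all. The NF-kB site was found in 5 of 17 windows of its list and in 2.74% of all.

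Enzymes of lipid synthesis rose more often than they fell. Of 12 genes of fatty acid synthesis 7 rose and 1 fell, with a median of 0.43. FADS1, the delta-5 desaturase of polyunsaturated fatty acids, ran from 5.34 over 6.14 to 6.33 at 3 h and from 7.61 over 7.73 to 7.97 at 8 h. It rose 3.32-fold (SE of the log2 difference 0.14, adjusted p = 4.97e-07) with no overlap. The stearoyl-CoA desaturase SCD rose by 0.99 (SE 0.08) and ME1, which supplies NADPH, by 0.88 (SE 0.11). The fall was that of MLXIPL, or ChREBP, a glucose-responsive factor of lipogenesis, which ran from 8.97 over 9.48 to 10.02 at 3 h and from 7.83 over 8.61 to 8.95 at 8 h. It fell by 0.99 (SE 0.21), again with no overlap. Of 18 sterol synthesis genes 6 rose and 1 fell (7 and 0 with the authors' scaling, 7 and 0 with average normalization, 3 and 0 over 59 arrays), with a median of 0.23. DHCR7, which makes the last step to cholesterol, rose by 0.97 (SE 0.10), the sterol reductase TM7SF2 by 0.92 (SE 0.14), the thiolase ACAT2 by 0.81 (SE 0.13) and the isomerase EBP by 0.53 (SE 0.15). ACAT2 was detected on 2 of 6 arrays at 3 h. MSMO1, a sterol oxidase, had a log2 difference of 0.23 (SE 0.12, adjusted p = 0.165), and its probes disagreed in sign (0.23 for the one used and -0.19 for the other). The fall of MVK (-0.27, adjusted p = 0.0444) stayed past the threshold in 2 of 12 fits that left 1 array out.

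The plot of single genes shows such values array by array. Among the 15 largest rises and 15 largest falls none overlapped between the times. They were chosen by the size of that difference, so the lack of overlap is no separate result. CEP128 among them has a bound only. Rises outside the lists were those of NFE2, a factor of erythroid and megakaryocytic cells (1.63, SE 0.28), CPED1 (1.58, SE 0.16, detected on 2 of 6 arrays at 3 h), the palmitoyltransferase ZDHHC14 (1.56, SE 0.14) and REPS2, a protein of receptor endocytosis (1.42, SE 0.11). The other probes of REPS2 gave 0.81 and 0.74.

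**Figure D3:**
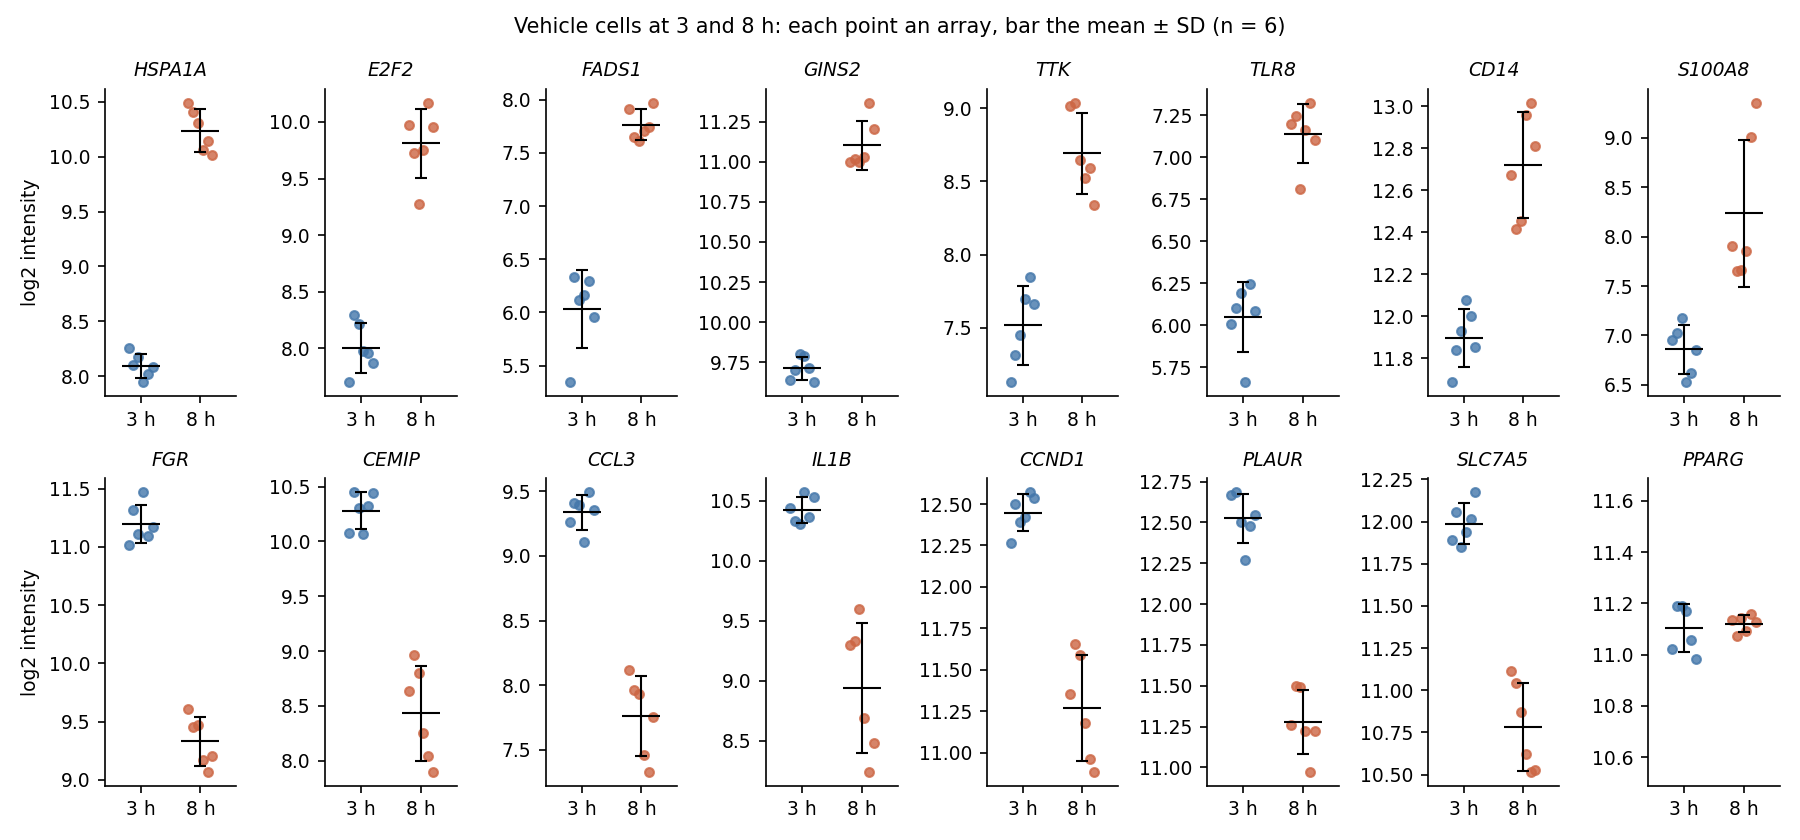
Log2 intensity (vertical axes, a scale of its own for each gene) of 16 genes on the 6 DMSO 3 h arrays (blue) and the 6 DMSO 8 h arrays (orange), with the mean and SD as a bar. The groups lie apart in every panel but that of PPARG, upward from HSPA1A to S100A8 and downward from FGR to SLC7A5.

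With the brightest probe of each gene, the largest fall was that of FGR, a Src family kinase of myeloid cells. It ran from 11.02 over 11.14 to 11.47 at 3 h and from 9.07 over 9.33 to 9.61 at 8 h. It fell 3.65-fold (log2 -1.87, SE 0.11, adjusted p = 4.5e-08) with no overlap. The probes of FGR gave -1.87 for the one used and -1.55 and -0.27 for the others, and the mean of its probes -1.23, less than the -1.89 of TM4SF19 and the -1.85 of CEMIP by that rule. NCF1, a subunit of the phagocyte oxidase whose nearly identical pseudogenes the probe may also read, ran from 7.78 over 7.93 to 8.09 at 3 h and from 5.83 over 6.42 to 6.74 at 8 h. It fell 2.91-fold (adjusted p = 6.95e-07), also with no overlap. Other large falls were those of the small GTPase RASD2 (-1.81, SE 0.19), the vesicle transport adaptor MLPH (-1.74, SE 0.15), the membrane protein TM4SF19 (-1.72, SE 0.12), the potassium channel KCNH4 (-1.57, SE 0.12) and NRSN1 (-1.56, SE 0.08). LFNG, a glycosyltransferase that modifies Notch, fell by 1.61 (SE 0.16). Its probes gave -1.61 for the one used and -0.18 for the other. On DMSO 3 h replicate 4 LFNG stood at 10.06, above the 5 other arrays, and without that array its difference was -1.46.

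Genes of inflammatory signalling fell where they changed. Of 22 genes of NF-kB signalling and cytokines 8 fell and the others did not pass the test, with a median of -0.28. With the authors' scaling 7 fell and 1 rose. IL1B, or interleukin-1 beta, ran from 10.31 over 10.41 to 10.57 at 3 h and from 8.24 over 8.99 to 9.60 at 8 h. It fell 2.80-fold (SE of the log2 difference 0.19, adjusted p = 2.87e-05), with no overlap and a wide spread at 8 h. CCL3, a chemokine for monocytes, ran from 9.10 over 9.37 to 9.49 at 3 h and from 7.33 over 7.84 to 8.12 at 8 h. It fell 2.98-fold (adjusted p = 4.25e-07) with no overlap. Its copies CCL3L3 and CCL3L1 fell by 1.52 (SE 0.13) and 1.35 (SE 0.11), and the 3 probes may share targets. RELB, a subunit of the alternative NF-kB pathway, fell by 0.97 (SE 0.15), and NFKB1, which encodes the p50 subunit, had a log2 difference of -0.24 (SE 0.10, adjusted p = 0.078). CD83, a surface marker of mature dendritic cells, fell by 1.09 (SE 0.10). In the fit over 59 arrays 0 of these genes passed the limma test and 0 had an unadjusted p under 0.05. IL1B had an adjusted p of 0.251 there, the highest over its alternatives, which began at 3.76e-07.

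Immediate early genes and feedback genes of the ERK cascade also fell where they changed, with 1 exception. Of 26 immediate early genes 10 fell and the others did not pass, with a median of -0.27. The AP-1 subunit FOSL1 fell by 0.86 (SE 0.13), the zinc finger factors KLF10 and EGR1 by 0.77 (SE 0.14) and 0.72 (SE 0.14), and the stress factor ATF3 by 0.65 (SE 0.08). The probes of KLF10 gave -0.77 for the one used and -0.71 and 0.12 for the others. RGS2, a brake on G protein signals, had a difference of -0.25 (SE 0.15, adjusted p = 0.222). Of 22 genes of ERK and protein kinase C feedback 11 fell and 1 rose, with a median of -0.39. PLAUR, the urokinase receptor, ran from 12.27 over 12.52 to 12.69 at 3 h and from 10.97 over 11.24 to 11.50 at 8 h. It fell 2.37-fold (SE of the log2 difference 0.10, adjusted p = 4.97e-07) with no overlap. DUSP10 and DUSP7, phosphatases of the MAP kinases, fell by 1.03 (SE 0.10) and 1.01 (SE 0.18). SPRED1, an inhibitor of Ras signalling, was the one that rose, by 0.38 (SE 0.12), and stayed past the threshold in 6 of 12 fits that left 1 array out. In the fit over 59 arrays 6 immediate early and 7 feedback genes fell.

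Proteases and matrix proteins had the lowest median of the 32 lists, with 13 of 25 genes falling and 5 rising. CEMIP, which takes part in the breakdown of hyaluronan, ran from 10.07 over 10.32 to 10.45 at 3 h and from 7.90 over 8.44 to 8.96 at 8 h. It fell 3.60-fold (SE of the log2 difference 0.16, adjusted p = 8.43e-07) with no overlap. The macrophage elastase MMP12 and the collagenase MMP1 fell by 1.53 (SE 0.17) and 1.53 (SE 0.19). THBS2, a matrix thrombospondin, went the other way, from a median of 6.88 to one of 8.04, and rose by 1.15 (SE 0.13). In the fit over 59 arrays 7 genes of the list fell and 1 rose. Genes of adhesion and the cytoskeleton gave 5 rises and 7 falls in 34 (6 and 5 with the authors' scaling, 6 and 7 with average normalization, 2 and 3 over 59 arrays). Their shares, 14.7% and 20.6%, lay near the 18.6% and 14.8% of all genes tested. ITGA5 of the fibronectin receptor fell by 0.49 (SE 0.10), while the integrin ITGA4 and the annexin ANXA1 rose by 0.52 (SE 0.08) and 0.57 (SE 0.10).

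MT1X, MT1E and MT1M are metallothioneins, small proteins that bind zinc and copper, and fell. MT1X ran from 11.39 over 11.69 to 11.95 at 3 h and from 8.97 over 10.24 to 11.01 at 8 h. It fell 2.83-fold (SE of the log2 difference 0.24, adjusted p = 0.00022) with no overlap. MT1E and MT1M, with transcripts much like that of MT1X, fell by 1.22 (SE 0.25) and 0.91 (SE 0.28). MT1M lost its call with the authors' scaling (adjusted p = 0.076), in the plain linear model, over 59 arrays, in the first set and without 3 h replicates 1 and 4, with an adjusted p of 0.00853 to 0.38 over all alternatives. The 4 other metallothioneins tested did not pass, with log2 differences from -0.57 to -0.29. Of 13 genes of the metal response 5 fell and 1 rose, with a median of -0.30 (-0.61 in the first set and -0.15 in the second), but 2 fell and 2 rose in the authors' scaled table. Over 59 arrays 2 fell and 1 rose. The rise in the main fit was that of SLC40A1, or ferroportin, the exporter of iron, at 0.89 (SE 0.13), and its probe was detected on 1 of 6 arrays at 3 h. The metal response element TGCNCNC was found in 7 of 8 windows of the list, and 55.9% of all windows hold it. The stretch of MT1X is shown because MT1X fell most among these genes, with 2 of its 4 matches in capitals.
MT1X (chr16:56682381-56682459, + strand): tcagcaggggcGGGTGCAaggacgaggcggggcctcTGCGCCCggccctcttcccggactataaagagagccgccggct

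Genes of endoplasmic reticulum stress and the amino acid response split in the main fit, with 12 of 32 falling and 6 rising. Falls and rises were 9 and 7 with the authors' scaling, 10 and 7 with average normalization, but 9 and 1 over 59 arrays. The median of the list was -0.06, and above 0 with the authors' scaled table and with average normalization. SLC7A5, the light chain of a transporter of large neutral amino acids, ran from 11.85 over 11.98 to 12.17 at 3 h and from 10.52 over 10.75 to 11.12 at 8 h. SLC3A2, its heavy chain, ran from 8.90 over 9.23 to 9.64 at 3 h and from 7.89 over 8.06 to 8.18 at 8 h. Neither overlapped, and they fell by 1.21 (SE 0.11) and 1.22 (SE 0.12). ASNS, asparagine synthetase, fell by 0.74 (SE 0.14) with the brightest probe, while its other probe gave -0.20. VEGFA, the vascular growth factor, fell by 0.91 (SE 0.12), while MANF, a factor secreted under reticulum stress, rose by 0.57 (SE 0.08). Of 15 aminoacyl-tRNA synthetases 3 fell and 1 rose (1 and 2 with the authors' scaling, 1 and 4 with average normalization, 3 and 1 over 59 arrays), with CARS1 falling by 0.83 (SE 0.10) and AARS1 rising by 0.47 (SE 0.08). Without DMSO 3 h replicate 4 the synthetases gave 1 fall and 1 rise. Of 30 genes of ribosome biogenesis 9 fell and 3 rose (7 and 3 with the authors' scaling, 7 and 3 with average normalization, 6 and 0 over 59 arrays), among the falls NOP16 (-0.74), RRP9 (-0.67), NIP7 (-0.65) and RRP12 (-0.64). The element TGATGNAA, a form bound by ATF4 and C/EBP factors, was found in 3 of 28 windows of the stress list (10.7%), those of ASNS, CHAC1 and SLC3A2, and in 3.62% of all windows. That of SLC3A2, which fell most of the list, lies after the gene's start and on the opposite strand, in capitals.
SLC3A2 (chr11:62881700-62881748, + strand): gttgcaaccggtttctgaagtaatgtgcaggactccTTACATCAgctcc

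Receptors of innate immunity gave 6 rises and 3 falls in 18 genes (6 and 1 with the authors' scaling, 6 and 1 with average normalization, 1 and 1 over 59 arrays). TLR8, an endosomal receptor of single-stranded RNA, ran from 5.66 over 6.09 to 6.25 at 3 h and from 6.81 over 7.18 to 7.32 at 8 h. It rose 2.13-fold (SE of the log2 difference 0.11, adjusted p = 2.7e-06) with no overlap. Its probes gave 1.09 for the one used and 0.56 for the other. CD14, the co-receptor of endotoxin and a marker of monocytes, ran from 11.68 over 11.89 to 12.08 at 3 h and from 12.41 over 12.74 to 13.02 at 8 h. It rose 1.77-fold (adjusted p = 5.45e-05), also with no overlap. TLR1 and TLR2, which pair to sense lipopeptides, rose by 0.59 (SE 0.11) and 0.56 (SE 0.16), and TLR2 was detected on 3 of 6 arrays at 3 h. Genes of macrophage differentiation gave 8 rises and 4 falls in 25 (11 and 3 with the authors' scaling, 11 and 3 with average normalization, 4 and 0 over 59 arrays). These were 32% and 16% of the list, beside 18.6% and 14.8% of all genes tested. S100A8, a calcium-binding protein of monocytes and neutrophils, rose by 1.38 (SE 0.26) with values from 7.65 to 9.35 at 8 h, and the Fc receptor FCGR1A by 0.62 (SE 0.12). Among 25 myeloid transcription factors 8 rose and 4 fell (10 and 1 with the authors' scaling, 12 and 1 with average normalization, 3 and 0 over 59 arrays). MYB, a factor of progenitors, rose by 0.91 (SE 0.16), the ETS factor FLI1 by 0.72 (SE 0.16) and IRF8, a factor of monocyte development, by 0.47 (SE 0.08).

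Receptors for chemokines and lipids gave 4 rises and 5 falls in 18 genes, and 8 rises and 2 falls with the authors' scaling. With average normalization 6 rose and 2 fell, and over 59 arrays 3 rose and 0 fell. GPR34 is counted among the rises though its probe was below detection on all DMSO 3 h arrays. GPR82, an orphan receptor, rose by 1.24 (SE 0.15) and was detected on 2 of 6 arrays at 3 h, and GPR18, a lipid receptor, rose by 1.03 (SE 0.13). GPR34, a receptor of lysophosphatidylserine, was detected on 0 of 6 arrays at 3 h and 6 of 6 at 8 h, where its level was at least 1.29-fold higher, a bound given with no test because the probe passed the filter through the 8 h arrays alone. The complement receptor C5AR1 fell by 0.67 (SE 0.15). Of 16 genes of eicosanoid synthesis and reception 5 rose and 1 fell (7 and 1 with the authors' scaling, 7 and 1 with average normalization, 2 and 0 over 59 arrays). The phospholipase PLA2G4A, which frees arachidonic acid, rose by 0.96 (SE 0.15), the prostaglandin E synthase and co-chaperone PTGES3 by 0.73 (SE 0.11) and the 5-lipoxygenase ALOX5 by 0.61 (SE 0.15). Of 10 genes of MHC class II presentation 3 rose and none fell (4 and 0 with the authors' scaling, 3 and 0 with average normalization, 0 and 0 over 59 arrays, where 1 had an unadjusted p under 0.05), among them RFX5, a regulator of the class, by 0.37 (SE 0.09) and CD74, the invariant chain, by 0.34 (SE 0.10).

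Other lists moved little, in both directions or mostly upward. Over all genes tested 18.6% rose and 14.8% fell. Interferon genes (20.7% and 10.3%), lysosomal genes (23.5% and 11.8%) and p53 targets (16.7% and 16.7%) lay near these shares. Fatty acid oxidation, glycolysis and hypoxia, antioxidant and TGF-beta genes had a larger share of rises and a smaller share of falls. Each of these lists gave fewer rises over 59 arrays. Interferon genes gave 6 rises and 3 falls in 29 (7 and 1 with the authors' scaling, 6 and 2 with average normalization, 0 and 0 over 59 arrays, where 0 had an unadjusted p under 0.05), with the ubiquitin ligase HERC5 and the GTPase GBP2 rising by 0.86 (SE 0.13) and 0.58 (SE 0.15) and the nuclease ISG20 and the factor IRF7 falling by 1.05 (SE 0.11) and 0.54 (SE 0.13). Their median was -0.04, but 0.09 with the authors' scaling, -0.11 in the first set and 0.12 in the second. The mean level of the list parted the sets at both times, at 8.19 to 8.34 on arrays of the first and 7.73 to 7.90 on those of the second. Clock genes gave 3 rises and 1 fall in 13 (3 and 1 with the authors' scaling, 1 and 1 with average normalization, 1 and 0 over 59 arrays). CRY1, a repressor of the clock, rose by 0.83 (SE 0.13) and BHLHE40 fell by 0.87 (SE 0.13), while its paralog BHLHE41 rose by 0.30 (SE 0.10) and PER2 had a difference of -0.27 (SE 0.10, adjusted p = 0.0508). BHLHE41 kept its call in 9 of 12 fits that left 1 array out. It lost the call over 59 arrays, in the second set and with average normalization (0.07, limma adjusted p = 0.669), among other alternatives. Glycolysis and hypoxia genes gave 10 rises and 3 falls in 32 (10 and 3 with the authors' scaling, 12 and 3 with average normalization, 6 and 2 over 59 arrays). The hexokinase HK2 and the mitophagy receptor BNIP3 rose by 0.78 (SE 0.16) and 0.58 (SE 0.11), and PFKFB3, which makes an activator of glycolysis, fell by 0.61 (SE 0.10). Fatty acid oxidation gave 8 rises and 1 fall in 27 (10 and 0 with the authors' scaling, 11 and 0 with average normalization, 1 and 0 over 59 arrays). Its enzymes HADH and EHHADH rose by 0.67 (SE 0.09) and 0.48 (SE 0.12), ACADS fell by 0.45 (SE 0.12), and the rise of CPT1A, which admits fatty acids to mitochondria, by 0.39 (SE 0.14) stayed past the threshold in 2 of 12 fits that left 1 array out. Subunits of oxidative phosphorylation gave 4 rises in 29, SDHD (0.54, SE 0.11) the largest, and lysosomal genes 8 rises and 4 falls in 34 (12 and 2 with the authors' scaling, 12 and 2 with average normalization, 4 and 0 over 59 arrays), with the sialidase NEU1 at 0.44 (SE 0.08). The antioxidant enzymes HMOX1 and NQO1 rose by 0.72 (SE 0.12) and 0.52 (SE 0.12), in a list with 6 rises and 2 falls in 19 (7 and 0 with the authors' scaling, 7 and 1 with average normalization, 5 and 2 over 59 arrays). Of 18 p53 targets 3 rose and 3 fell (4 and 2 with the authors' scaling, 4 and 2 with average normalization, 0 and 2 over 59 arrays), with the cytokine GDF15 and the phosphatase TIGAR falling by 0.64 (SE 0.15) and 0.59 (SE 0.11). Of 15 TGF-beta genes 6 rose and 2 fell (9 and 1 with the authors' scaling, 7 and 1 with average normalization, 0 and 1 over 59 arrays), with PMEPA1, a feedback inhibitor, falling by 1.03 (SE 0.15).

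PPARG did not pass the test. The genes PLIN2, FABP4, G0S2 and VLDLR of lipid droplets and lipid transport fell, while 4 of 24 genes of lipid uptake and droplets rose. PPARG itself ran from 10.98 over 11.11 to 11.19 at 3 h and from 11.07 over 11.13 to 11.16 at 8 h, a log2 difference of 0.02 (SE 0.07, adjusted p = 0.872) with overlapping groups. Its probes gave 0.02 for the one used and -0.08 for the other. NR1H3, or LXR alpha, had a difference of 0.27 (SE 0.15, adjusted p = 0.179) and passed with the authors' scaling (adjusted p = 0.023), with a range of 0.0228 to 0.617 over all alternatives. PDK4, a brake on glucose oxidation, had one of -0.46 (SE 0.47, adjusted p = 0.495) and was detected on 3 of 6 arrays at 3 h and 5 of 6 at 8 h, and ANGPTL4, an inhibitor of lipoprotein lipase, one of -0.98 (SE 0.40, adjusted p = 0.0743). Both were highest on DMSO 3 h replicates 1 and 4, PDK4 at 6.88 and 8.21 beside a median of 5.14, ANGPTL4 at 7.96 and 8.15 beside one of 6.31. Without replicate 4 the differences were 0.02 and -0.68, with adjusted p of 0.97 and 0.162. PLIN2, the coat protein of lipid droplets, was also highest on these arrays, at 13.77 and 14.54 beside a median of 13.15. It fell by 0.88 (SE 0.22, adjusted p = 0.00552), and differed by -0.66 without replicate 4 (adjusted p = 0.00246). Without replicates 1 and 4, a choice made after seeing the data, PDK4 differed by 0.41, ANGPTL4 by -0.27 and PLIN2 by -0.52, with adjusted p of 0.061, 0.416 and 0.00355. Over all alternatives the adjusted p of PLIN2 lay between 0.000231 and 0.214, that of ANGPTL4 between 0.0112 and 0.416 and that of PDK4 between 0.061 and 0.97. FABP4, a fatty acid carrier, fell by 0.70 (SE 0.19), and lost its call without 3 h replicates 1 and 4 (-0.48, adjusted p = 0.0669), in the second set and over 59 arrays, with an adjusted p of 0.00127 to 0.146 over all alternatives. The lipase inhibitor G0S2 fell by 0.87 (SE 0.16) and the lipoprotein receptor VLDLR by 0.83 (SE 0.18). Of 24 genes of lipid uptake and droplets 4 rose and 6 fell (5 and 4 with the authors' scaling, 4 and 4 with average normalization, 1 and 2 over 59 arrays). These were 16.7% and 25% of the list, beside 18.6% and 14.8% of all genes tested. The median of the list was -0.02, and 0.12 with the authors' scaling. Of 15 LXR target genes the phosphodiesterase SMPDL3A rose by 0.75 (SE 0.14) and the cholesterol exporter ABCG1 fell by 0.32 (SE 0.10), while 5 rose and none fell with the authors' scaling. Over 59 arrays 1 gene of this list rose and 0 fell. Of 12 PPAR and RXR receptors and coregulators 1 rose, the corepressor NRIP1 by 0.34 (SE 0.08), and 0 passed over 59 arrays.

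The neighbouring times place the interval in the course of the vehicle cells. List means at 0.5, 1.5, 3, 8 and 12 h are given as a description, with no test, and at 12 h over 4 arrays, without replicates 4 and 6, which stand apart. The mean log2 intensity of the replication list was 8.39, 8.59, 8.83, 9.66 and 9.93, and that of the mitotic list 7.29, 7.34, 7.34, 7.97 and 8.41. Replication genes were already higher at 3 h than at 0.5 h, and mitotic genes were nearly level until 3 h. The chaperone list went through 9.77, 9.67, 9.97, 10.56 and 10.49 and HSPA1A through 7.34, 7.30, 8.10, 10.24 and 10.08, both highest at 8 h. The metallothionein list went through 8.66, 8.93, 9.34, 8.99 and 8.74 and MT1X through 10.19, 10.90, 11.69, 10.20 and 9.90, so that their lower level at 8 h followed a highest level at 3 h. The list mean stood at 8.37 on 8 h replicate 4 and at 9.03 to 9.20 on the other 8 h arrays, and its change from 3 to 8 h was -0.35 with that array and -0.22 without it. The ERK feedback list was lower at each step, through 8.57, 8.35, 8.05, 7.60 and 7.53, and CEMIP went through 11.14, 11.21, 10.28, 8.43 and 7.36. TLR1 went through 8.18, 8.18, 6.47, 7.07 and 7.10, so that after its rise it lay below its level at 0.5 h. CD14, at 12.26, 12.31, 11.90, 12.72 and 12.91, ended above it.

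**Figure D4:**
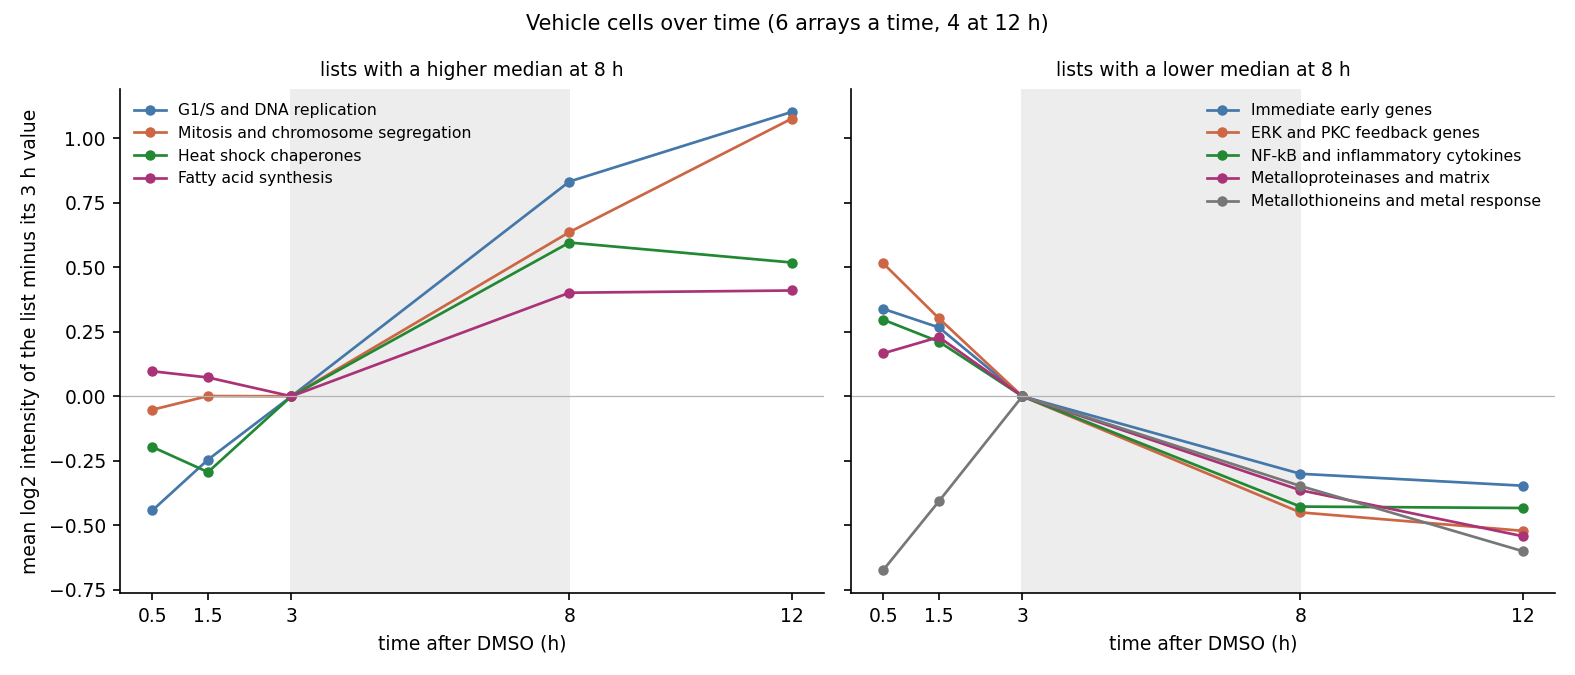
Mean log2 intensity of 9 gene lists in vehicle cells minus the list's value at 3 h (vertical axis) against the time after DMSO in hours (horizontal axis), with 6 arrays at each time, 4 at 12 h, and the interval from 3 to 8 h shaded. The means of replication and mitotic genes are highest at 12 h, that of chaperones is highest at 8 h, and metallothioneins have their highest point at 3 h.

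The same interval was then read in cells that had received RSG, on arrays that share no sample with the vehicle arrays. Most genes took the same course. In a fit of 23 arrays, without RSG 8 h replicate 1, which stands apart, 1591 genes (15.4%) rose and 1519 (14.7%) fell from 3 to 8 h of RSG. Of the 3443 genes called in vehicle cells 3392 (98.5%) had the same direction with RSG, and of the 984 called at 1.5-fold or more 983 did. Of the rises in vehicle cells 70.1% were also called as rises with RSG, and 84.5% of the RSG rises were called in vehicle cells. Of the falls these shares were 70.6% and 70.9%, and 4 genes were called in opposite directions. The log2 changes had a correlation of 0.89 across the 10329 genes, which are not independent. With RSG the replication list gave 39 rises and 1 fall, the mitotic list 31 rises, the chaperones 13 rises and 1 fall and the NF-kB list 10 falls. The counts of other lists were unlike those in DMSO. Chemokine and lipid-sensing receptors gave 3 falls and no rise with RSG, with a median of -0.05 beside 0.22 in DMSO. Clock genes gave 2 rises and 4 falls with RSG, with a median of -0.19, and lysosomal genes 1 rise and 4 falls. These differences between lists were not tested. HSPA1A had a change of 2.26 with RSG and CEMIP one of -2.04.

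Few genes passed the test of the difference between both changes. They were 2 of 10329 (0.0194%), and 311 had an unadjusted p under 0.05. FGR fell less with RSG, with a change of -0.95 (SE 0.10), a difference of 0.92 from vehicle cells (SE 0.14, adjusted p = 0.0102). This call was lost with the authors' scaling, with average normalization, with the mean of its probes, with the replicate block, over 59 arrays and with RSG 8 h replicate 1 kept, and in all alternatives the adjusted p lay between 0.00142 and 0.9998 and the difference between 0.71 and 1.10. The other gene called was GPR34, which lay below detection on all DMSO 3 h arrays, so that its vehicle change is only a bound and its difference from RSG is not measured. The next by p were RBP7, a retinol carrier, FABP4 and TLR8, at adjusted p of 0.0501, 0.0501 and 0.0501. RBP7 had a change of 0.04 (SE 0.19, adjusted p = 0.9) in DMSO, detected on 3 of 6 arrays at 3 h, and of 1.71 (SE 0.23) with RSG. FABP4 fell in DMSO and had a change of 0.68 (SE 0.19) with RSG, and TLR8 rose in DMSO and had one of 0.33 (SE 0.11) with RSG. With RSG 8 h replicate 1 kept in, 1978 genes were called with RSG and 1 gene differed.

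**Figure D5:**
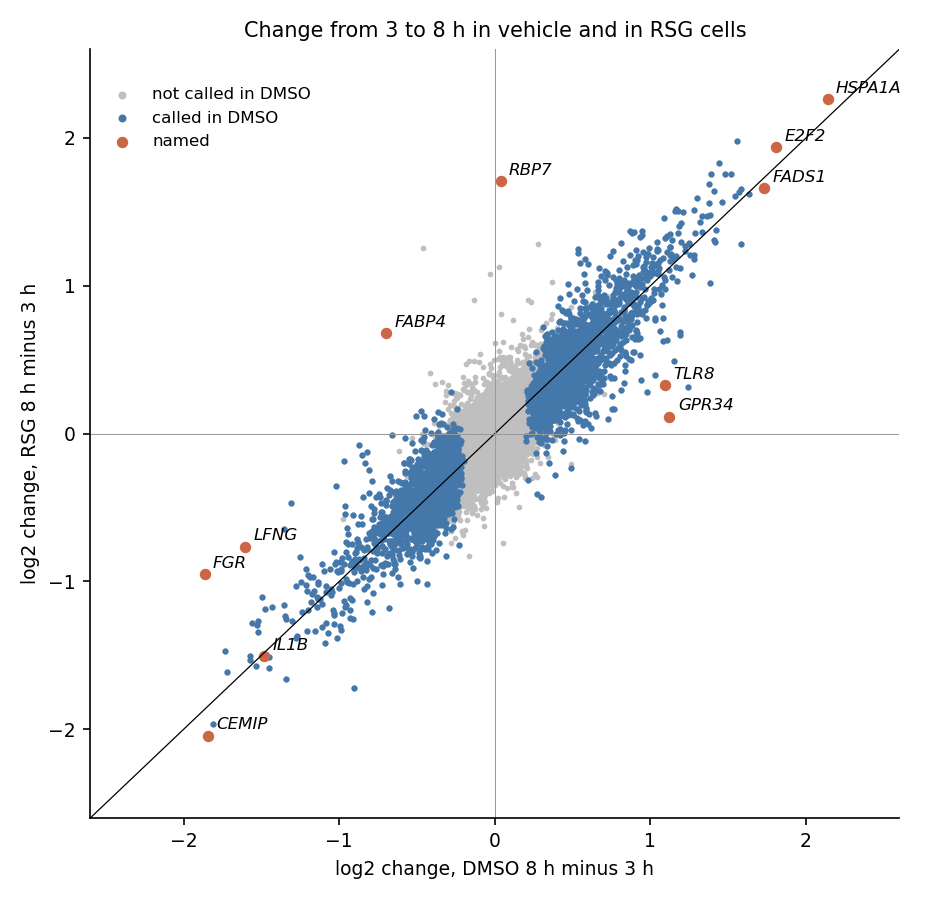
Log2 change from 3 to 8 h with RSG (vertical axis) against that with DMSO (horizontal axis) for the 10329 genes tested, grey where not called in DMSO, blue where called, orange for 11 named genes, with the line of equal change. Most called genes lie near the line, with a correlation of 0.89 over all genes, and FGR, GPR34, TLR8, FABP4 and RBP7 lie off it.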

How the data were processed

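RNA of THP-1 cells was measured on Illumina BeadChip arrays, 59 in 10 groups of treatment and time. The deposited table of raw intensity holds 24531 probes, with signals that the authors exported from the scanner software without background subtraction or scaling. The detection p-value beside each signal is deposited as the authors' software gave it. A further deposited table holds intensity values that the authors had background-subtracted and scaled, and was used as an alternative. The tables share 24526 probes, and 5 were left out. Of these 21834 have 1 gene symbol and 2692 none in the platform annotation, and 21813 symbols were matched by gene ID. In limma 3.58.1 (R 4.3.3) neqc (normexp background correction, quantile normalization, offset 16) was run on all 59 arrays. Probes with a detection p under 0.01 on at least 5 of the 12 DMSO arrays of 3 and 8 h were kept, and the brightest probe stood for a gene. A linear model with lmFit and eBayes was fitted to the 12 arrays, and one with both treatments to 23 arrays for RSG and for the difference between treatments, with Benjamini-Hochberg adjustment over 10329 genes and a threshold of 0.05. The scripts were checked on simulated data. The number of arrays limits the precision, and the median SE of a log2 difference was 0.109.

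Named genes were the 15 called genes with the largest rise and the 15 with the largest fall whose probe was above detection on 3 or more of the 6 arrays of the brighter time, PPARG, PDK4, ANGPTL4 and NR1H3, up to 4 called members of largest difference and up to 2 others of highest signal in each list, and the 5 of smallest p in the test between treatments. Genes that lost their call without DMSO 3 h replicate 4 could be named as well. HSF1, MVK, SPRED1, ASNS, MANF and PCNA, and promoters and motifs, were chosen after their values were seen. Members and lists were chosen with earlier results of these data known. The alternatives were other normalizations, filters, probe rules, fits and arrays left out. Blocks and splits by the sets of arrays, and the fit without DMSO 3 h replicates 1 and 4, were chosen after seeing the data. Same-numbered arrays of 3 and 8 h had residual correlations between -0.49 and -0.15. Every such pair joins arrays of different sets, so whether the numbers pair the arrays cannot be decided from them.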

Additional observations from a re-analysis of the deposited data

Results flagged for a closer look

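In each group of 6 vehicle arrays the highest or lowest array was set against the rest with Dixon's criterion, for the 139 genes named. Of 278 pairs of gene and group 8 held an array far from the others, where chance gives about 1 in 20. LFNG stood at 10.06 on DMSO 3 h replicate 4, against 9.14 to 9.40 on the others. CD74 stood at 9.75 on 3 h replicate 1 against 9.20 to 9.37, IRF8 at 10.75 on 3 h replicate 2 against 10.60 to 10.65, and GPR34, below detection, at 4.70 on 3 h replicate 6 against 4.37 to 4.47. At 8 h DTL stood at 8.37 on replicate 6, below the 9.12 to 9.44 of the others, and PTGES3 at 10.93 on the same array, below 11.35 to 11.56. KIF11 stood at 7.23 on 8 h replicate 5 against 6.55 to 6.78, and IRF7 at 7.02 on 8 h replicate 4 against 6.72 to 6.79. No 2 of the 3 h values came from the same array. The change from 3 to 8 h differed between treatments in FGR, by 0.92 (limma adjusted p = 0.0102), as RSG minus DMSO. The fitted difference of GPR34 was -1.01 (adjusted p = 0.0138), but its probe was below detection on all DMSO 3 h arrays, so that this is not a measured difference. Under the alternatives 0 to 10 genes passed this test.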

How the results depend on the processing

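Of 129 called genes among the 139 named, 0 turned direction, 120 kept their call in all fits that left 1 array out, and 80 in all alternatives. The 129 include CEP128 and GPR34, which have a bound only. Leaving out 1 array gave 3011 (without DMSO 8 h replicate 5) to 3545 (without DMSO 8 h replicate 6) called genes for DMSO, 2669 (without RSG 8 h replicate 2) to 3244 (without RSG 3 h replicate 1) for RSG and 1 to 5 for the difference between treatments, which had 2. That count was 1 without RSG 8 h replicate 5, 4 without replicate 3 of DMSO 3 h or of DMSO 8 h, and 5 without DMSO 3 h replicate 5 or without replicate 1 or 4 of RSG 3 h. The fit over all 59 arrays, 5 of which stand apart, gave 1828 for DMSO (1795 of them among the 3443), 1751 for RSG and 0 for the difference, with 156 at an unadjusted p under 0.05. Over 54 arrays the difference was called in 5 genes and with array weights in 10, and in 1 each with average normalization, with probes detected on all 12 arrays, with the mean of a gene's probes and with RSG 8 h replicate 1 kept, where RSG gave 1978. With the authors' table it was called in 2, of which 0 were among those reported. Changes of at least 1.5-fold numbered 984 for DMSO and 1060 for RSG.

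The replicate number as a block left 2409 called genes for DMSO, 2404 of them among the 3443, 2698 for RSG and 0 for the difference (276 at an unadjusted p under 0.05). Same-numbered arrays of 3 and 8 h had residual correlations with a mean of -0.34, against 0.07 for other pairs. Each same-numbered pair joins arrays of different sets, so these values cannot decide whether the numbers pair the arrays.

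Of the genes not called, RBP7, PPARG and PDK4 turned sign. RBP7 was at -0.0505 with average normalization, -0.0563 with array weights, -0.0735 with a block for high background, -0.29 in the second set and -0.0637 to 0.19 without 1 array. PPARG was at -0.0309 with the mean of its probes, -0.0102 in the first set and -0.00567 to 0.0364 without 1 array. PDK4 was at 0.41 without DMSO 3 h replicates 1 and 4 and -0.68 to 0.0194 without 1 array, the highest without DMSO 3 h replicate 4. The causes were not tested. The block for both sets, chosen after seeing the data, gave 4364 called genes for DMSO, and the sets alone 2577 and 2990. Normalization of the 12 vehicle arrays alone was not run for RSG, whose arrays it leaves out. Probes below detection on a group, as in CEP128 and GPR34 at 3 h, give a bound only.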
